A study of Mus musculus with 2 samples.

Results

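The sites described here are m6A sites called at a position where the mouse reference genome, mm10, carries no A on the strand of the transcript. They were chosen by reading the mm10 base at every called site of the cerebellum and cerebrum libraries: 510 of 219409 sites lacked A, which is 2.32 per 1000 (95% Wilson interval 2.13 to 2.54), and the other 218899 lay at A. The mm10 base was G at 507 of the 510 sites, C at 2 and T at 1. The cerebellum list held 209 of these sites among 79355, and the cerebrum list 364 among 188295. They are called non-A sites below, and sites at A of mm10 are called A-sites.

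A methyl group on adenosine, m6A, marks many mRNAs and is known for hastening their decay. The enzyme that writes it, METTL3 with its partner METTL14, favours an A followed by C within DRACH, a 5-letter code in which D is any base but C, R is a purine and H is any base but G. GLORI deaminates unmethylated A, which is then read as G, so that an A left in the reads marks m6A at a single base. A hybrid mouse carries both parental genomes, and a base change between the parents can give one allele an A, and with it a possible m6A site, that the other allele lacks. In a protein-coding sequence the same base change can also alter the amino acid.

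The study asked how m6A differs between the parental alleles of hybrid mice. Both libraries were made from poly(A)+ RNA, 1 from the cerebellum and 1 from the cerebrum, and are labelled GLORI+. By the study's methods both tissues came from a single female F1r mouse at P0, a hybrid of a C57BL/6J (C57) mother and a PWK/PhJ (PWK) father, so that sharing between the lists is sharing within 1 animal. The genome mm10 is of the C57 strain, and the authors called sites on it and also on PWK-mm10, in which each known SNP position was given the PWK base, and then joined the call sets. By these methods a non-A site can enter a list only through PWK-mm10. The PWK SNP list was not used here: the A at the centre of a non-A site was put in and not read, and other PWK bases around a site are not known. The lists give chromosome, position and strand, with no methylation rate and no read count; depth is unknown, and how strongly each site was methylated cannot be given. At most non-A sites the C57 allele carries G, the same letter that a deaminated A of the PWK allele gives. Reads of that G can count as unmethylated, so the authors' filter on methylation rate may be stricter at non-A sites than at A-sites. How far this shapes the comparisons of non-A sites with A-sites below was not tested.

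With 1 library per tissue there was no test between tissues. The intervals given with shares are 95% Wilson intervals, and those of differences are 95% Newcombe intervals; they cover counting error over sites only, and sites of one gene are not independent. Of 13 forebrain marker genes, 13 had an exonic site in the cerebrum list and 6 in the cerebellum list, with Emx1 and Tbr1 among those in cerebrum alone. Of 14 hindbrain marker genes, 7 had one in cerebellum and 4 in cerebrum, with En1 and En2 in cerebellum alone. Hoxa2, Hoxb2, Pax2, Atoh1, Ptf1a, Gabra6 and Pcp2 of the hindbrain list had no exonic site in either list. The cerebrum list was also the longer one, with 188295 sites against 79355. The share of all genes with a site in each list was not computed beside these counts.

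Of the 510 non-A sites 63 were called in both libraries (12.4%, against 22.0% of all called sites), and 45 of the 63 fit DRACH with A at the centre, 41 of them on exons of coding transcripts. The 24 of these 41 that lay nearest to their stop codon are shown first, because motif, position and detection in both tissues come together there. Each sequence is the mm10 strand of the transcript, from the RefSeq copy of GRCm38, with the motif 5-mer in capitals and the mm10 G at its centre, where A stands in the motif. The coordinates are those of mm10. Of the 24 sites, 22 lay in 3′ UTRs and 2 in coding sequence, and the 3′ UTR sites other than that of Csnk1a1, which is named without its sequence, are:
9530068E07Rik (chr11:52407079-52407099, plus strand, 3′ UTR, 13 nt after the stop codon): cacttgacTGGCAtttgctta
Zbtb41 (chr1:139447536-139447556, plus strand, 3′ UTR, 16 nt after the stop codon): cattccatAGGCCttttaatg
Ddx46 (chr13:55678882-55678902, plus strand, 3′ UTR, 61 nt after the stop codon): gtaaagtaAGGCTtttaaaat
Caml (chr13:55632060-55632080, plus strand, 3′ UTR, 70 nt after the stop codon): tctaaaagGGGCAacttggtt
Pde3b (chr7:114536334-114536354, plus strand, 3′ UTR, 96 nt after the stop codon): tcccatgtGGGCAcgccttaa
B3gat1 (chr9:26759241-26759261, plus strand, 3′ UTR, 117 nt after the stop codon): tattccgaGGGCTtccaagag
Vcl (chr14:21031873-21031893, plus strand, 3′ UTR, 150 nt after the stop codon): cttgtcatGGGCActttgaaa
Preb (chr5:30955475-30955495, minus strand, 3′ UTR, 158 nt after the stop codon): ggtcttggGAGCTcttgcctt
Cops8 (chr1:90612403-90612423, plus strand, 3′ UTR, 160 nt after the stop codon): ttctcctcAGGCActtttgaa
Sh3bgrl3 (chr4:134127550-134127570, minus strand, 3′ UTR, 181 nt after the stop codon): cctgacgaTGGCTgtccccag
Zfp84 (chr7:29777766-29777786, plus strand, 3′ UTR, 212 nt after the stop codon): aaaataggAAGCTctccttat
Dph3 (chr14:32082953-32082973, minus strand, 3′ UTR, 218 nt after the stop codon): ttaaggaaGAGCCttattata
Srgap3 (chr6:112722497-112722517, minus strand, 3′ UTR, 281 nt after the stop codon): taagattgAGGCAgatgctta
Dnm3 (chr1:161991700-161991720, minus strand, 3′ UTR, 312 nt after the stop codon): ctttggaaGAGCTttctaagc
Mrpl9 (chr3:94448403-94448423, plus strand, 3′ UTR, 493 nt after the stop codon): tgctcttaGAGCTttctctct
Cdh4 (chr2:179896536-179896556, plus strand, 3′ UTR, 628 nt after the stop codon): aaatcactGGGCTagcctaac
Rims2 (chr15:39682432-39682452, plus strand, 3′ UTR, 678 nt after the stop codon): ttttctcgGGGCTgcaacttg
Pip5k1c (chr10:81318490-81318510, plus strand, 3′ UTR, 732 nt after the stop codon): cctaagaaGGGCAcagtcagg
Btbd1 (chr7:81792785-81792805, minus strand, 3′ UTR, 773 nt after the stop codon): gaaccataAAGCTgtccatgt
Sez6l (chr5:112421135-112421155, minus strand, 3′ UTR, 864 nt after the stop codon): gggctcctAGGCTgtcttggc
Adcyap1r1 (chr6:55498044-55498064, plus strand, 3′ UTR, 883 nt after the stop codon): tctagaatGGGCCagccacct

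Genes of signalling at the neuronal surface and of membrane traffic are among these hosts. Dnm3 encodes a dynamin of membrane fission, Rims2 a scaffold of the presynaptic active zone, Pip5k1c a kinase that makes the lipid PIP2, Srgap3 a GTPase-activating protein of Slit-Robo signalling, Cdh4 a cadherin, Adcyap1r1 the receptor of the neuropeptide PACAP, B3gat1 the enzyme that makes the HNK-1 glycan, and Sez6l a membrane protein of neurons. Vcl encodes vinculin, which links adhesion sites to actin, and Pde3b a phosphodiesterase that degrades cAMP. Others serve in every cell: Ddx46 is a splicing helicase, Cops8 a subunit of the COP9 signalosome, Mrpl9 a protein of the mitochondrial ribosome, Dph3 acts in diphthamide synthesis, Caml acts in the insertion of tail-anchored membrane proteins, and Csnk1a1 is a casein kinase. Zbtb41 and Zfp84 encode zinc finger proteins. Of the 24 sites, 23 lay in the last exon, which follows largely from choosing them near the stop codon. An A-site lay within 50 nt on the same strand of 18 of the 24, and of 43 of the 63 non-A sites found in both libraries. Over all A-sites 42.6% had another A-site as near, and in 3′ UTRs 53.0%. The share among A-sites found in both libraries was not computed, so that these counts do not set the non-A sites apart.

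The coding sites shown next are the 2 of the same set, in Coil and Synj1, and the other sites found in both libraries whose A changes the amino acid. Capitals mark the 5-mer with the mm10 G at its centre, and each codon is given with G and with A:
Coil (chr11:88981638-88981658, plus strand, codon 278, GAG in mm10 and GAA with A): tgtcagctGAGCTgttgaaag
Synj1 (chr16:90938928-90938948, minus strand, codon 1376, GCT in mm10 and ACT with A): tgtatcaaAGGCTcagccttc
Shprh (chr10:11152053-11152073, plus strand, codon 138, AGC in mm10 and AAC with A): tcagagtcAAGCAgtcagttc
Rprd2 (chr3:95774215-95774235, minus strand, codon 452, AGC in mm10 and AAC with A): aagcctctGAGCActgcactt
Chd9 (chr8:90932867-90932887, plus strand, codon 155, AGC in mm10 and AAC with A): caaaacaaAAGCTttgtggcg
Fam214a (chr9:75009920-75009940, plus strand, codon 604, GCT in mm10 and ACT with A): gctgaacaAGGCTgctggctt
Dst (chr1:34303008-34303028, plus strand, codon 5247, GCC in mm10 and ACC with A): gcctgctgCCGCCagcacacc
Pom121 (chr5:135381176-135381196, minus strand, codon 1039, AGC in mm10 and AAC with A): gggagcagCAGCTctctgttt

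The G-to-A change in Coil, which encodes coilin of Cajal bodies, leaves glutamate in place. In Synj1, the synaptojanin phosphatase of synaptic vesicle uncoating, and in Fam214a it turns alanine into threonine. In Shprh (a ubiquitin ligase of DNA repair), Rprd2 (a partner of RNA polymerase II) and Chd9 (a chromatin remodeller) it turns serine into asparagine. These 5 missense sites fit DRACH. The sites in Dst, which encodes the cytoskeletal linker dystonin (alanine to threonine), and Pom121, a nuclear pore protein (serine to asparagine), were also found in both libraries and lie outside it.

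The 3 sites where mm10 carries C or T are shown because their C57 allele does not carry G, the letter that deamination gives. The 5-mer is again in capitals, with C or T of mm10 at its centre:
Snhg14 (chr7:59650565-59650585, minus strand, intron): gtaaaaaaCACAAccaaacat
Gm9801 (chr7:62159302-62159322, minus strand, intron): cttccactAACTTctccatta
Nxpe4 (chr9:48241080-48241100, plus strand, intron): acactaacATTCCaccacacc

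With A at the centre these read CAAAA in Snhg14, AAATT in Gm9801 and ATACC in Nxpe4. All 3 lay in introns, none fit DRACH, and each was called in a single library, cerebellum for Gm9801 and cerebrum for Snhg14 and Nxpe4.

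With A at the centre, 158 of the 510 non-A sites fit DRACH, which is 31.0% (27.1 to 35.1), against 44.5% over all called sites and 44.5% of A-sites, a difference from A-sites of -13.5 percentage points (-17.4 to -9.36). Among sites found in both libraries the share was 71.4% of non-A sites and 82.8% of A-sites (difference -11.4, -23.5 to -1.72). Sites called in cerebellum alone fit DRACH in 16.4% of cases, against 30.3% of A-sites (-13.8, -19.0 to -6.95). In cerebrum alone the shares were 29.6% and 34.4%, and the interval of that difference included 0 (-4.86, -9.74 to 0.533). At non-A sites and A-sites alike the share was higher among sites in both libraries than among those of a single library.

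**Figure D1:**
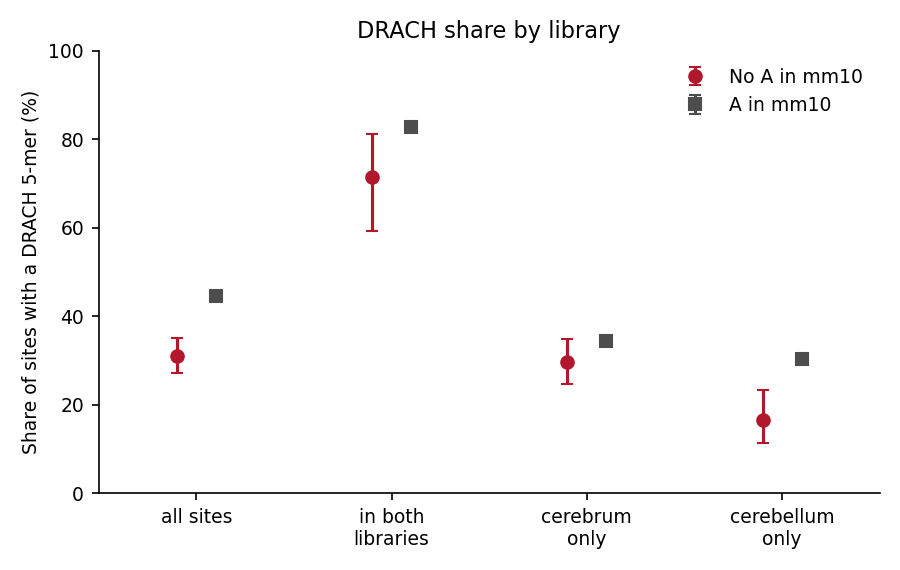
Share of sites with a DRACH 5-mer (vertical axis, %) for non-A sites (circles) and A-sites (squares), over all sites and by the library in which they were called; bars are 95% Wilson intervals and are smaller than the squares for A-sites. Non-A sites in both libraries sit at 71.4%, well above the 16.4% of sites called in cerebellum alone.

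The 4 most frequent 5-mers fit DRACH. GAACT had 29 sites, 8 of them in both libraries, followed by AAACT with 16, GGACT with 15 and AGACT with 13. At 12 sites each came TGACT and GAACA in the motif and TCATT outside it. GGACT, first among A-sites with 5.77%, made up 2.94% of non-A sites, while GAACT took similar shares, 5.69% of non-A sites and 5.53% of A-sites. TCATT had no site in both libraries, and made up 2.35% of non-A sites and 0.768% of A-sites. GTACT, which departs from DRACH only by its T before the A, had 9 sites of which 3 were in both libraries, among them synonymous sites in Zyg11b and Fam171a1.

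Among the 352 sites outside DRACH, 126 missed it at 1 position, 150 at 2, 61 at 3 and 15 at 4. Those at 1 position were 35.8% of the 352, against 40.4% of A-sites outside DRACH (-4.64, -9.48 to 0.500). When a single position was missed, it was the base after the A at 66 sites, the base before it at 45, the first base at 10 and the last at 5. Base by base, G before the A stood at 21.2% of non-A sites and 38.0% of A-sites (difference -16.8, -20.1 to -13.0). T before the A stood at 21.8% and 12.0% (9.75, 6.38 to 13.5), and T after the A at 38.0% and 21.8% (16.3, 12.2 to 20.6). C after the A, which DRACH requires, stood at 46.5% and 55.3% (-8.80, -13.1 to -4.46). The excess of T after the A also held within introns among sites outside DRACH, at 62.3% against 49.6% (12.7, 5.66 to 19.3). C directly before the site stood at 121 of 510 sites or 23.7%, against 21.1% of A-sites (2.60, -0.896 to 6.48). At all 121 the mm10 base was G, which makes a CpG, whereas C before an A-site makes none. The share of CpG among G bases was not counted, so that the comparison does not say whether CpG is in excess.

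Introns held more non-A sites than any other region, 229 sites or 44.9%, against 25.9% of A-sites (19, 14.7 to 23.3). 3′ UTRs held 129 sites, coding sequences 65, other exons (those of transcripts without a complete coding sequence) 51 and 5′ UTRs 4, in Brinp3, Asah2, Dpysl5 and Cyth2. A further 8 lay antisense to a gene and 24 between genes. Per 1000 called sites, non-A sites numbered 0.936 in 5′ UTRs (0.364 to 2.40), 1.14 in coding sequence (0.893 to 1.45), 1.77 in 3′ UTRs (1.49 to 2.10), 2.40 in other exons (1.82 to 3.15) and 4.02 in introns (3.54 to 4.58). Between genes they numbered 4.59 (3.09 to 6.82) and antisense to genes 5.40 (2.74 to 10.6), with intervals that overlap that of introns. The intervals of coding sequence and 3′ UTRs did not overlap, and that of introns lay above both. On coding transcripts alone, with 198 non-A sites, 65.2% lay in 3′ UTRs against 54.3% of A-sites (10.8, 3.94 to 17.1), and 32.8% in coding sequence against 42.5% (-9.66, -15.8 to -2.84). A non-A site needs a base that differs between the strains, and the density of such bases by region was not counted here. The study held a denser SNP content of 3′ UTRs to be the likely reason for a 3′ UTR shift of its allelically detectable sites. These rates and shares are therefore not a measure of methylation by region.

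**Figure D2:**
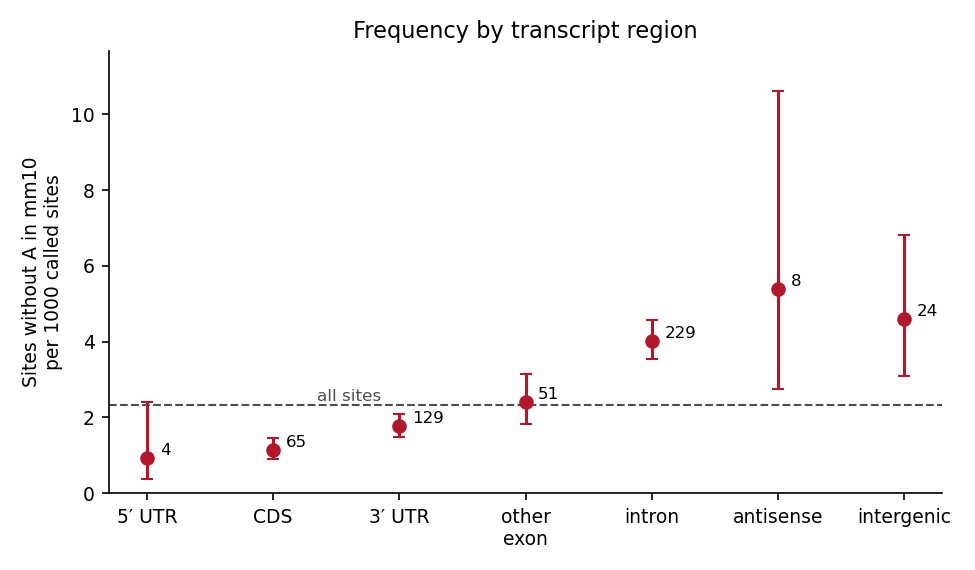
Non-A sites per 1000 called sites (vertical axis) by transcript region, with 95% Wilson intervals, the number of non-A sites beside each point, and the value over all sites as a dashed line. Coding sequence sits at 1.14 and introns at 4.02.

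The DRACH share differed by region. In 3′ UTRs it was 52.7% of non-A sites and 63.5% of A-sites (-10.8, -19.4 to -2.39), and in coding sequence 52.3% and 58.8% (-6.54, -18.5 to 5.14), where the interval included 0. In introns the order was the other way, 16.6% of non-A sites and 12.3% of A-sites (4.32, 0.0554 to 9.69). The lower DRACH share over all sites did not hold within introns.

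Nearness to the stop codon and presence in the last exon were compared next, and both intervals included 0. Of non-A sites on coding transcripts 17.2% lay within 200 nt of the stop codon, against 18.6% of A-sites (-1.38, -6.00 to 4.49), and 74.7% against 69.5% lay in the last exon (5.22, -1.27 to 10.8). In 3′ UTRs the median distance after the stop codon was 732 nt, with quartiles of 218 and 1627 nt, against a median of 653 nt at A-sites with quartiles of 238 and 1639 nt. The 27 DRACH sites of 3′ UTRs found in both libraries had a median of 312 nt and ran from 13 nt in 9530068E07Rik to 3607 nt. The 41 DRACH sites called in a single library had a median of 668 nt, and the 57 sites outside DRACH called in a single library 1183 nt. All 4 groups of 3′ UTR sites overlapped in their distances. At A-sites of 3′ UTRs the medians were 523 nt with DRACH and 977 nt without.

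**Figure D3:**
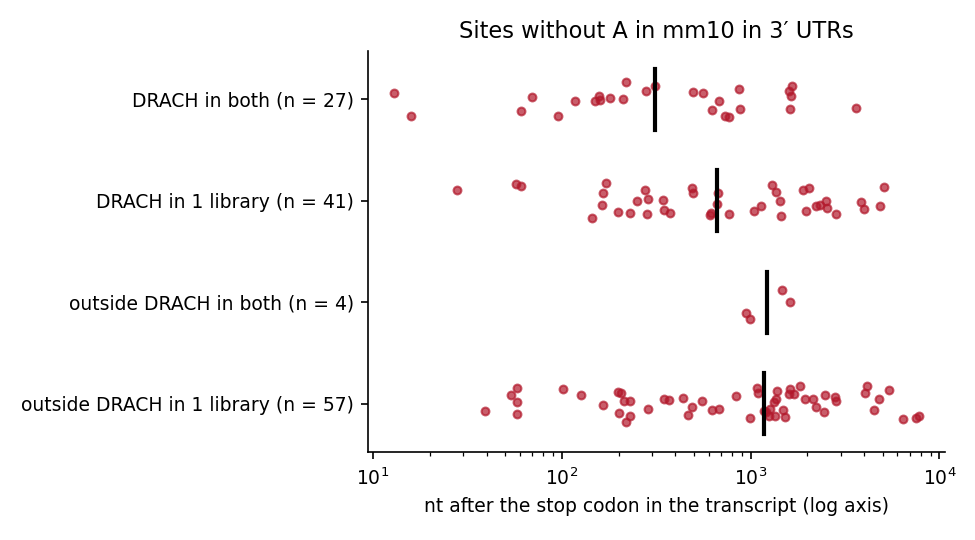
Distance of each non-A site in a 3′ UTR from the stop codon (horizontal axis, nt in the transcript, log scale), by motif and by whether it was found in both libraries; each point is a site, placed at random heights within its row, and black lines are medians. The DRACH sites found in both libraries have the lowest median, 312 nt, and all groups overlap.

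All 65 coding sites of the set were at G of mm10, and with A in its place 40 codons kept their amino acid and 25 did not. The missense share was 38.5% (27.6 to 50.6), with 12 of 34 or 35.3% (21.5 to 52.1) among those that fit DRACH and 13 of 31 or 41.9% (26.4 to 59.2) among the others. As background, the same change at each of the 7544 G bases with DRACH flanks in the coding sequences of the same transcripts would alter the protein in 68.7% of cases (67.6 to 69.7), those that make a stop codon included, which were 2.85%. Over all 76634 G bases of these coding sequences the share was 67.7% (67.4 to 68.1), and both intervals lay above that of the non-A sites. Both backgrounds count every possible change, whereas a non-A site needs a base that differs between the strains. G-to-A differences between the strains without a called site were not counted. The comparison therefore cannot tell a trait of m6A sites from one of strain differences. None of the 65 sites made or removed a stop codon or changed a start codon, and none of the 510 sites lay in the pair of intron bases next to an exon. The third position of the codon held 40 of the 65 sites or 61.5% (49.4 to 72.4), against 25.2% of A-sites in coding sequence (36.4, 24.2 to 47.2) and 34.2% of the G bases with DRACH flanks. All 40 of these were synonymous, while the 14 sites at the first position and the 11 at the second were missense. The genetic code largely fixes this split for a G-to-A change. The third-position share and the synonymous share are thus the same result, and the limit of the background applies to both. With DRACH sites alone the third position held 64.7% against 25.3% of A-sites (39.4, 22.6 to 53.2).

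**Figure D4:**
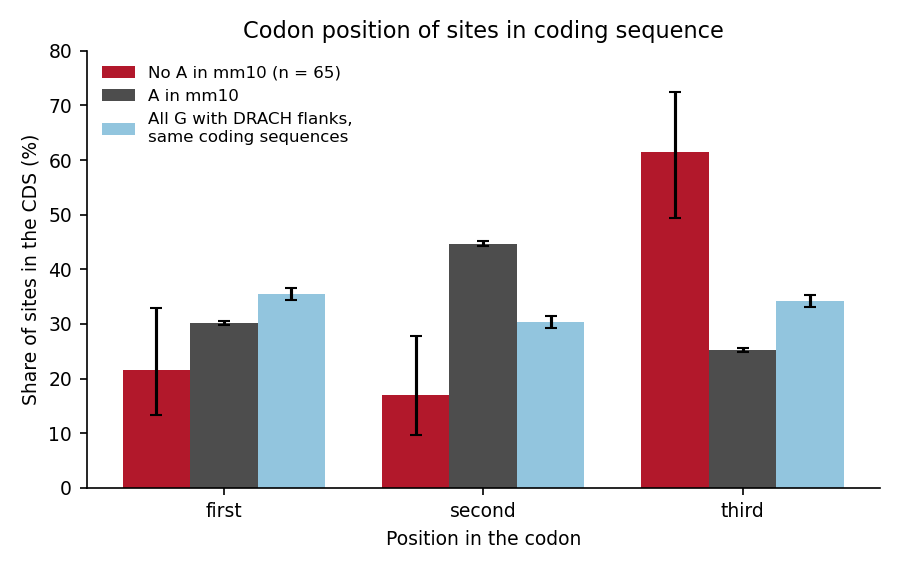
Share of sites in coding sequence (vertical axis, %) at each codon position for the 65 non-A sites, for A-sites and for all G bases with DRACH flanks in the same coding sequences; bars start at 0 and whiskers are 95% Wilson intervals. The third position holds 61.5% of non-A sites, 25.2% of A-sites and 34.2% of the G bases.

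The 25 missense sites comprised 8 changes of alanine to threonine, 7 of serine to asparagine, 6 of valine to isoleucine, 2 of glycine to aspartate and 1 each of arginine to glutamine and arginine to histidine. The 12 that fit DRACH were 5 of alanine to threonine, 5 of serine to asparagine and 2 of glycine to aspartate, which are the only changes that the genetic code allows for a missense G-to-A change at the centre of DRACH. Besides the 5 sites given above, these were Maml1 (a coactivator of Notch signalling) and Zfhx4 (a zinc finger homeobox protein) with serine to asparagine, Bptf (a subunit of the NURF remodelling complex) and Zfp804a with glycine to aspartate, and Birc6 (a large inhibitor of apoptosis), Unc13b (a vesicle priming protein of the synapse) and Zfp157 with alanine to threonine. The site in Zfhx4 was called in cerebellum alone and the others of these 7 in cerebrum alone. None of the 6 changes of valine to isoleucine, which the code places outside DRACH, was in both libraries.

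Of the 40 synonymous sites 11 were found in both libraries. Outside those named above they lay in Lrrn2 (at codon 2, directly after the start codon), Wdcp, Golgb1 (the Golgi protein giantin), Crebrf, Zfp521, BC005561, Dop1a and Zbtb38, all of them DRACH with A. Coding sequence and 3′ UTRs together held 49 of the 63 non-A sites found in both libraries, 77.8% against 85.8% of A-sites in both (-8.00, -19.7 to 0.505).

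Of all called sites 22.0% were in both lists, and of the non-A sites 63 of 510 or 12.4% were (difference from A-sites -9.66, -12.2 to -6.51). Seen from each library, 60.8% of all cerebellum sites were also called in cerebrum, and 25.6% of all cerebrum sites in cerebellum. The 209 cerebellum non-A sites were also in the cerebrum list in 30.1% of cases (24.3 to 36.7), against 60.9% of cerebellum A-sites (-30.7, -36.6 to -24.2). The 364 cerebrum non-A sites were also in the cerebellum list in 17.3% of cases (13.8 to 21.5), against 25.6% of A-sites (-8.33, -11.9 to -4.10). The number called in cerebellum alone was 146, which is 4.69 per 1000 sites called in cerebellum alone (3.99 to 5.51), against 2.15 per 1000 in cerebrum alone (1.92 to 2.41) and 1.31 per 1000 in both (1.02 to 1.67).

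Sharing was also compared within motif and region. Among DRACH sites 41.0% of all called sites and 28.5% of non-A sites were in both lists (difference from A-sites -12.5, -19.0 to -5.00). Among DRACH sites on exons of coding transcripts the shares were 39.4% of non-A sites and 44.6% of A-sites (-5.21, -14.1 to 4.41), with 0 inside the interval. From the cerebellum side the same sites were shared in 80.4% and 83.6% of cases (-3.20, -16.1 to 5.41), and from the cerebrum side in 43.6% and 48.9% (-5.30, -14.9 to 4.79). For cerebellum sites of 3′ UTRs the shares differed, 49.2% against 71.8% (-22.6, -34.6 to -10.6), as did those of introns, 2.60% against 11.4% (-8.78, -10.7 to -2.37), while in coding sequence the shares were 60.0% and 74.3% and the interval included 0 (-14.3, -31.9 to 1.16). From the cerebrum side all 3 intervals included 0: 3′ UTRs -5.04 (-13.5 to 4.78), coding sequence -0.913 (-12.2 to 12.5) and introns -2.01 (-2.97 to 1.31). Of the 229 intronic non-A sites 2 were in both libraries, 0.873% against 2.63% of intronic A-sites (-1.76, -2.41 to 0.500). The one in Gria1, a subunit of AMPA-type glutamate receptors, reads AAACT with A, and that in Gm42416 reads ACACC and is outside DRACH.

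**Figure D5:**
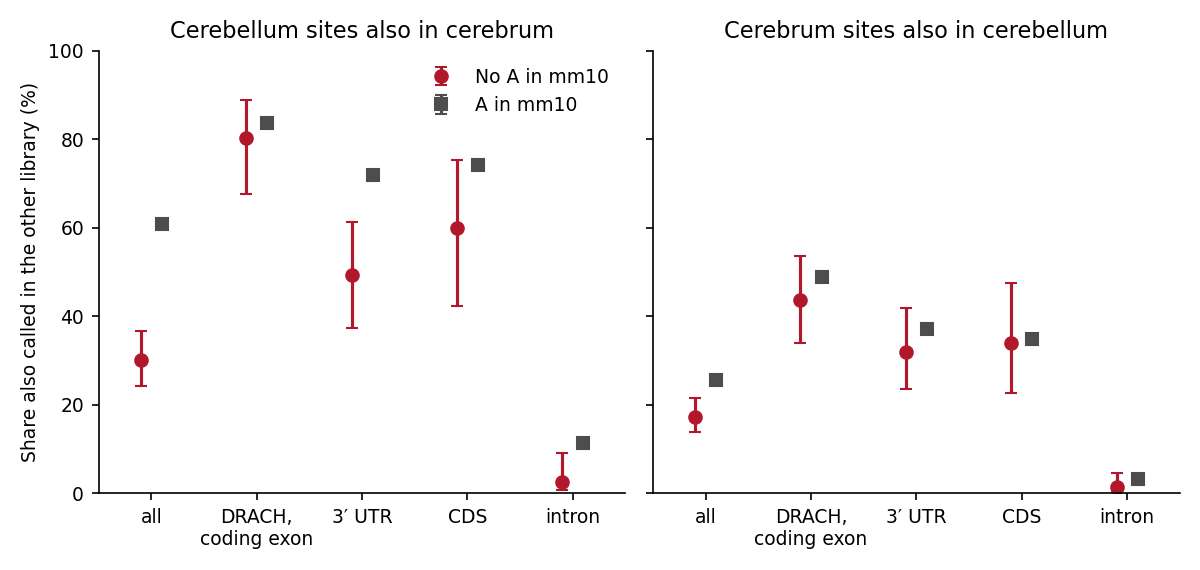
Share of sites also called in the other library (vertical axis, %) for cerebellum sites (left) and cerebrum sites (right), with non-A sites as circles and A-sites as squares and 95% Wilson intervals, over all sites, DRACH sites on exons of coding transcripts, and 3 regions. For cerebellum the gap is 30.1% against 60.9% over all sites and 80.4% against 83.6% for DRACH sites on coding exons.

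Most non-A sites called in a single library lay in genes that had A-sites in the other library too. Of the cerebellum-only non-A sites in genes this held for 131 of 138 or 94.9%, against 97.3% of cerebellum-only A-sites (-2.34, -7.37 to 0.258). Of the cerebrum-only ones it held for 256 of 284 or 90.1%, against 89.0% (1.13, -2.90 to 4.08).

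The 478 non-A sites in genes fell in 418 genes, of which 376 held 1, 32 held 2 and 10 held 3 or more, and 407 also held A-sites. Host genes had a median of 35 A-sites, with quartiles of 14.25 and 80.75, and genes with any A-site had a median of 5. A gene with more called sites is more likely to hold a non-A site, so that a higher median is built into the choice of host genes. The 10 genes with most were Lsamp (a neural adhesion protein), Magi2 (a synaptic scaffold) and Ptprd (a receptor phosphatase) with 5 each, Ctnna2 (a neuronal catenin) and Nrg3 (a neuregulin) with 4 each, and Cadps (of vesicle exocytosis), Csmd1, Fam19a2, Lrrtm4 (a synaptic adhesion protein) and Robo1 (a receptor of Slit) with 3 each. Of their 38 sites 37 lay in introns, 8 fit DRACH and 0 were in both libraries. Over all intronic non-A sites 16.6% fit DRACH and 0.873% were in both libraries, so that the 0 does not set these genes apart. Their A-sites ran from 77 in Cadps to 939 in Ptprd, so that 3 of 80 sites in Cadps and 5 of 944 in Ptprd were non-A sites, 37.5 and 5.30 per 1000. Counted once per site, the genes that hold intronic non-A sites had a median length of 465.6 kb, against 410.0 kb for intronic A-sites.

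The distance to other sites was compared within regions as well. An A-site lay within 50 nt on the same strand of 34.9% of non-A sites, against 42.6% of A-sites with another A-site as near (-7.67, -11.7 to -3.43). Within regions the shares were 51.9% and 53.0% in 3′ UTRs (-1.06, -9.62 to 7.39), 58.5% and 54.5% in coding sequence (3.95, -8.18 to 15.1), and 19.7% and 20.9% in introns (-1.29, -5.93 to 4.35), with 0 inside each interval. None of the non-A sites lay within 100 nt of another. In 17 cases an A-site lay within 2 nt, so that the base change falls inside the 5-mer of that A-site. Whether the A-site fit DRACH was the same with either base in all 17: the A-site in Gmnc fit it both ways (GGACA and GAACA) and the other 16 in neither. In 5 of the 17 the change stood at the last base of the 5-mer of the A-site, and none of these had the DRAC letters before it.

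By chromosome, autosomes held 2.36 non-A sites per 1000 called sites (2.16 to 2.57), from 1.36 on chromosome 19 to 3.53 on chromosome 16. The X chromosome held 8 of 6522 or 1.23 per 1000 (0.622 to 2.42), an interval that overlaps that of the autosomes. The mitochondrial genome, inherited from the C57 mother, held 0 of 56 sites, up to 5.36% by the rule of 3 counts of the total. It has no PWK copy in this cross, so that the 0 was fixed in advance and the limit is formal only. Both libraries are labelled female, yet 33 called sites lay on the Y chromosome. Of these 0 were non-A sites, up to 9.09% by the same rule. A female carries no Y chromosome, so that this limit is formal too.

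In F1r the PWK allele is the paternal one. A list of imprinted genes taken as maternally expressed held 390 A-sites in 15 genes and 1 non-A site. That site lay in an exon of Mirg, a noncoding RNA of the Dlk1-Dio3 domain. A list taken as paternally expressed held 751 A-sites in 28 genes and 3 non-A sites, in Kcnq1ot1, Sgce and Snhg14. None of these 4 sites fit DRACH and none was in both libraries, and the counts are too small to set the lists apart. The lists were set by gene name, and allelic expression was not measured here. The list names need not hold for every gene. The paternal list included Commd1, Copg2, Blcap, Trappc9 and Gnas, which may be expressed from the maternal allele or from both. Its counts may therefore mix both directions.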

How the data were processed

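GLORI sequencing was done on poly(A)+ RNA, and 1 site list per tissue was used. The authors mapped reads and called sites with GLORI-tools on mm10 and on PWK-mm10, filtered them on methylation rate and read number, and merged both call sets. The deposited lists hold position and strand as other values, without counts, rates or scores. Here the base on the site strand was read from GRCm38 (RefSeq) with pysam 0.24.0, and sites not at A were kept. Each site was placed on the longest covering isoform with a complete coding sequence of GENCODE M21, then on other exons, introns, antisense or between genes. The study used another GENCODE release, and its PWK SNP list was not used here. For 100% of 5989 simulated sites the simulated transcript position was among the exon overlaps found. Codon reading matched full translation for 100% of 2000 simulated coding changes. These values do not cover the choice of the longest isoform. Samples were grouped by tissue label. Both lists carry the tag bel, which the study uses for cerebellum samples, though each is also named by its own tissue. The marker counts given above bear on this. Shares carry Wilson intervals, differences Newcombe intervals, and no test was made. The sites, gene lists and comparisons were chosen with earlier results of these data known. Sites named are DRACH sites in both libraries on coding exons (the 24 nearest the stop codon), changes of stop, start or splice bases, missense sites in both libraries or DRACH, genes with 3 or more sites, sites at C or T, imprinted genes, and sites after a DRAC. Alternatives were single libraries, sites in both libraries, no repeat sequence, no sites within 100 nt of another, G sites alone, DRACH sites alone, spliced 5-mers, any isoform and looser sharing rules. Some items are not reported here.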

Additional observations from a re-analysis of the deposited data

How the results depend on the processing

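Of 57 alternative values, 15 left both counts behind the share as they were, 9 of them from leaving out sites within 100 nt of another, of which there were 0. Of the other 42, 33 stayed within the interval of the value reported and 9 did not. With cerebellum sites alone, the intron share was 36.8% and the share with C directly before 17.7%. With cerebrum sites alone, the DRACH share was 36.8%. With sites found in both libraries alone, the DRACH share was 71.4%, the intron share 3.17%, the share with C directly before 9.52% and the share within 50 nt of an A-site 68.3%. With DRACH sites alone, sharing was 65.2% of cerebellum sites and 33.6% of cerebrum sites. The cause was not tested. The shares of 3′ UTR and coding sites and of missense sites stayed within their intervals under every alternative that changed a count. No paired analysis was possible because each tissue had 1 library and no test was made. The lists give no reads, so that a site missing from a list cannot be told from one with too few reads.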
